A study of Mus musculus with 8 samples.

Results

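Transcripts of the actin cytoskeleton and of target genes of serum response factor (SRF) were followed in mouse embryonic stem (ES) cells after knockdown of Taf5, a subunit of TFIID, the factor that recognises core promoters. The genes were taken from a list of 47 symbols that was chosen with earlier results of these data known. It covers actins, tropomyosins, calponins and transgelins, myosins, crosslinkers, focal adhesion proteins, LIM-domain proteins, actin turnover factors, membrane linkers and Srf itself. Of these, 46 had a probe annotated with their symbol, and all 46 passed the filter on dim probes among 25150 features tested on the array. Actb, the cytoplasmic beta-actin gene, had no probe annotated with its symbol and has no value here. Each gene is represented by its brightest probe.

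The cells were IB10 cells, a subclone of the E14 mouse ES line, grown with LIF on gelatin-coated plates. There were 4 lines: Ctrl-kd#1 and Ctrl-kd#2 with a control short hairpin, and Taf5-kd#1 and Taf5-kd#2 with a hairpin against Taf5. All 4 were made with a pLKO-puro lentivirus, selected with puromycin and expanded from picked colonies, so each line is 1 clone, and the parental cells lack these steps. Every line was grown in duplicate and put on 2 dual-colour arrays with opposite dyes against a pool of parental ES cell RNA. A value below is therefore a log2 ratio to that pool, with the dye effect removed, and group means carry the SD over 2 lines.

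Actin monomers polymerise into filaments that tropomyosins coat, myosin II pulls on, and alpha-actinins and filamins crosslink. Focal adhesions couple these filaments to integrins and so to the matrix. SRF binds a DNA element called the CArG box, and its cofactors of the MRTF family are held in the cytoplasm by monomeric actin, which ties transcription of many actin-regulatory genes to the state of the filaments. ES cells are round, tightly packed cells with few stress fibres, and genes for contractile and adhesion proteins are typically raised when such cells spread or differentiate.

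Taf5 (chromosome 19) stood at 0.44 and 0.51 in Ctrl-kd#1 and 0.14 and 0.14 in Ctrl-kd#2, against -1.09 and -1.07 in Taf5-kd#1 and -1.06 and -1.16 in Taf5-kd#2. The difference was -1.41 ± 0.13 (log2, SE; adjusted p = 0.0267), with no overlap between the groups. The median sample signal per array was 123 to 186 intensity units over a background of 35 to 39.5. Over all features the correlation between arrays was 0.946 to 0.970 within a line, 0.741 to 0.834 between the lines of 1 group and 0.166 to 0.487 between groups. With 2 lines in each group, the number of lines sets the precision.

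Because SRF acts through the CArG box, the 250 bases before the annotated start were read for the 44 genes of the list with a RefSeq promoter entry (assembly GRCm38.p6). The standard 10-base CArG box, searched on both strands, was present in 11 of them (25.0%), against 439 of 27025 genes (1.62%) in the same window. The list was chosen in part for known SRF targets, so this share is a description of the list. The boxes lay before Acta1, Actc1, Actg1, Cnn2, Fhl1, Fhl2, Lima1, Myl6, Myl9, Srf and Vcl. Actb, Actg2 and Tagln were not matched to an entry. The windows of 6 of these genes are printed. Actg1, Cnn2, Vcl, Fhl2 and Myl9 were higher in Taf5-kd than in Ctrl-kd, as described below, and Srf did not pass the test. The windows of Acta1, Actc1, Fhl1, Lima1 and Myl6, which did not pass either, are not printed. Their log2 differences between the groups were 0.11, 0.17, 0.53, 0.76 and -0.06. Capitals mark the CArG box, and each window runs 5′ to 3′ on the strand of its gene and ends at the base before the start. Actg1 lies at chr11:120348496-120348745 on the minus strand, Cnn2 at chr10:79988350-79988599 on the plus strand and Vcl at chr14:20929148-20929397 on the plus strand. The window of Fhl2 at chr1:43163962-43164211 on the minus strand precedes 1 of its 2 annotated starts. Myl9 lies at chr2:156775214-156775463 on the plus strand and Srf at chr17:46556163-46556412 on the minus strand.
Actg1: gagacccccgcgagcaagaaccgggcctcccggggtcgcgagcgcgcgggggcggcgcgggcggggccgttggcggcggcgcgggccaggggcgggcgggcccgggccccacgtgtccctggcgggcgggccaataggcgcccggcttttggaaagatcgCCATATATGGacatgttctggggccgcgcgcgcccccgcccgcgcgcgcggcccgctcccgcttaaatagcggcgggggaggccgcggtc
Cnn2: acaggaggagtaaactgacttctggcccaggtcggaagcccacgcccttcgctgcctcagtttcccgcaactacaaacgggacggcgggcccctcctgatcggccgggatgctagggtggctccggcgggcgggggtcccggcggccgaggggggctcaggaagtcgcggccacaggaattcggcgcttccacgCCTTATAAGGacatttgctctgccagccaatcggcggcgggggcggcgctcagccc
Vcl: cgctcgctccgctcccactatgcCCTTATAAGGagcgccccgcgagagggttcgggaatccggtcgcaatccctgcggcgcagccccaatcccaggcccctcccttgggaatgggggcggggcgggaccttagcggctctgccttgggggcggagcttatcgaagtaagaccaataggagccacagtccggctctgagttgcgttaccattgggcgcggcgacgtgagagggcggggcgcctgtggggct
Fhl2: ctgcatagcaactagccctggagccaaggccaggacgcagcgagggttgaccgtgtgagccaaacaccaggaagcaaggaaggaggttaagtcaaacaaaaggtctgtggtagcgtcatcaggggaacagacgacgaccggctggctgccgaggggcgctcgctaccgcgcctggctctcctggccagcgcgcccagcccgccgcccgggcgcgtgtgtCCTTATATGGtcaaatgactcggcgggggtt
Myl9: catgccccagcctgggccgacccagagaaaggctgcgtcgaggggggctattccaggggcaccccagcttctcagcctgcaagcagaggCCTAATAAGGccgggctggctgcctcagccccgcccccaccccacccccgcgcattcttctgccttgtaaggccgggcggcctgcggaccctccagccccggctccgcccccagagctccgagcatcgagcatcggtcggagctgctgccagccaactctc
Srf: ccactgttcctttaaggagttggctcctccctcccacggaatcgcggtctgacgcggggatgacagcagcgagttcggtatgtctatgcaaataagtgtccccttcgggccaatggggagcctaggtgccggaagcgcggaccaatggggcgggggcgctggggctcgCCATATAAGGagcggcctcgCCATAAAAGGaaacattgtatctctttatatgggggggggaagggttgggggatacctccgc

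The box began 90 bases before the start in Actg1, 56 in Cnn2, 227 in Vcl, 31 in this window of Fhl2 and 161 in Myl9. Srf carried 2 boxes, beginning 82 and 62 bases before its start. A match is a description of letters and no evidence of binding, and a window without a match says only that these letters are not in it.

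**Figure D1:**
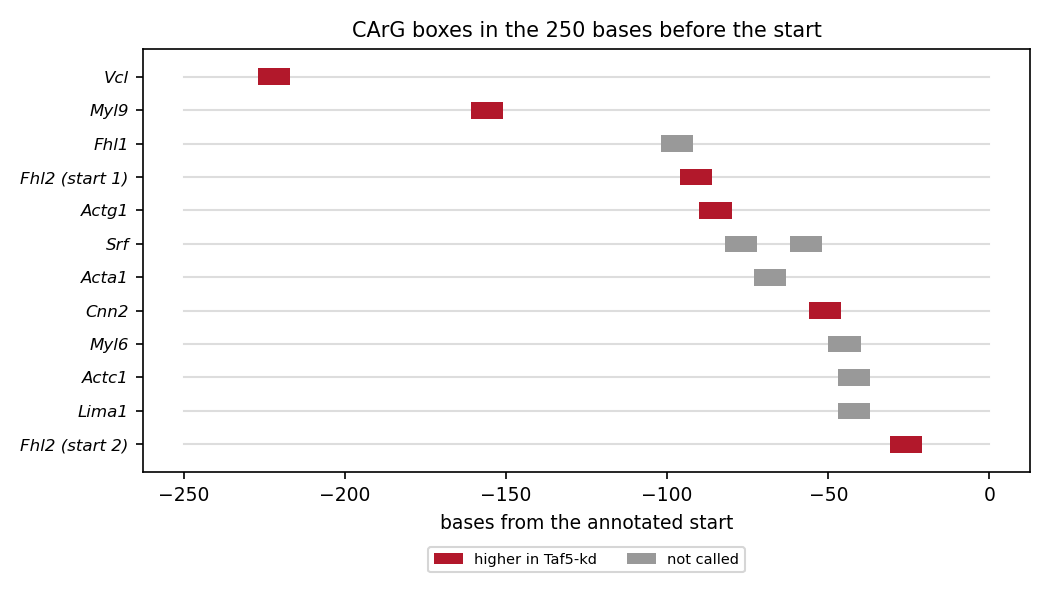
Position of every CArG box found in the 250 bases before the annotated start of 11 genes of the list (x axis, bases from the start; grey lines, windows searched; Fhl2 has 2 annotated starts). Bars are coloured by the result of Taf5-kd against Ctrl-kd, and boxes lie before genes with and without a difference.

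The main pattern was a lower level of these transcripts in the control lines, while the Taf5-kd lines lay nearer to the parental pool for most of them. Against the parental pool, 36 of 46 genes were lower in Ctrl-kd and 1, Cobl, was higher (adjusted p under 0.05), while over all features 13.0% were called lower and 8.38% higher. In Taf5-kd against the pool, 20 of 46 were lower and 1, Zyx, was higher, where 10.7% of all features were called lower and 7.74% higher. In the direct comparison of Taf5-kd with Ctrl-kd, 17 of 46 genes were higher, 1 was lower and 28 did not pass, against 4.5% of all features called higher and 3.25% called lower. The median over the 46 genes was -0.739 in Ctrl-kd against the pool, -0.272 in Taf5-kd against the pool and 0.430 in Taf5-kd against Ctrl-kd, with medians over all features of 0.003, -0.003 and -0.006. The comparisons share the Ctrl-kd and Taf5-kd lines, so they are not independent of one another, and the test against the pool leaves out the spread of the pool itself. Because the list and the tests were chosen with earlier results of these data known, the counts are not independent support.

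All 17 genes that were higher in Taf5-kd than in Ctrl-kd were lower in Ctrl-kd than in the pool. Among all features, 726 of the 1133 called higher in Taf5-kd were also called lower in Ctrl-kd than in the pool. The combination thus held for 17 of 46 genes and for 2.89% of all features. Both calls use the same Ctrl-kd values, so they are not independent. In Taf5-kd against the pool, 9 of these 17 were lower, 7 did not pass and 1 was higher. The 4 arrays of Taf5-kd lay above the 4 of Ctrl-kd for 30 of 46 genes and below them for 4, and such a separation held for 18.1% of all features in each direction. Over 2-fold below the pool stood 16 of 46 genes in Ctrl-kd and 4 in Taf5-kd, where 1.59% and 0.688% of all features stood that low. The calls rest on all 4 lines. With 1 line left out, 0 genes were called higher without Ctrl-kd#1, 0 without Taf5-kd#1, 2 without Taf5-kd#2 and 0 without Ctrl-kd#2, in fits with 1 line in a group. Centring each array on its median in place of loess left 3 of the 17 calls. With that centring, 51 of all 25150 features were called higher, in place of 1133. With the replicate block, a fit over the 8 arrays with the dye as block and the line as random block, 29 genes were higher and 4 lower. There 12.4% of all features were called higher and 10.2% lower. That fit counts the arrays of a clone as partly separate. It called 5673 features in place of 1950, so it is the less strict test.

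**Figure D2:**
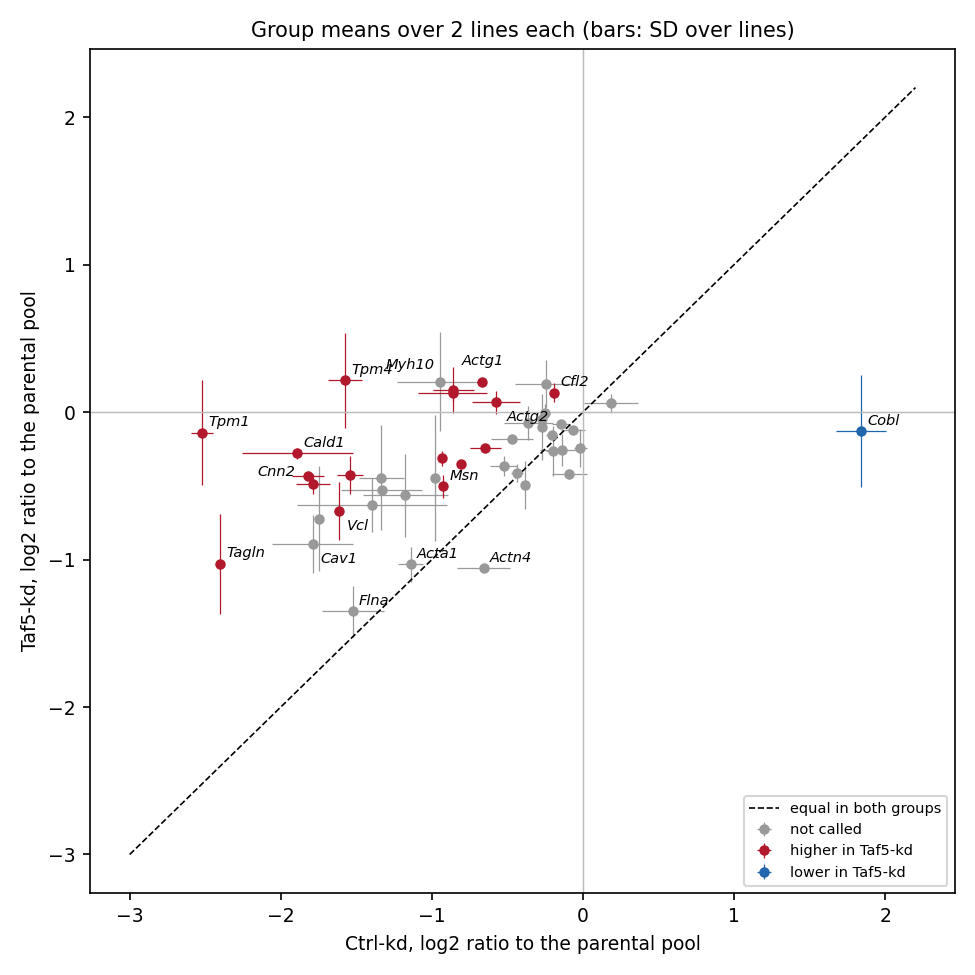
Mean log2 ratio to the parental pool in Ctrl-kd (x axis) and in Taf5-kd (y axis) for 46 genes, each a mean of 2 lines with the SD over lines as bars. Most points lie left of 0 and above the dashed line of equality, Flna and Acta1 lie close to that line, and Cobl lies alone at the right.

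The actins are the monomers of the filament. Of the 5 with a probe, Acta2, Actg1 and Actg2 were higher in Taf5-kd than in Ctrl-kd, and Acta1 and Actc1 did not pass. Actg1, the cytoplasmic gamma-actin, stood at -0.95 and -0.96 in Ctrl-kd#1 and -0.66 and -0.86 in Ctrl-kd#2 and at 0.21 and 0.31 in Taf5-kd#1 and -0.02 and 0.10 in Taf5-kd#2. The control arrays were all low and the Taf5-kd arrays all near the parental level, without overlap. The difference was 1.01 ± 0.11 (SE; 2.01-fold, adjusted p = 0.0312).

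Acta2, the smooth muscle alpha-actin, stood at -1.06 and -0.99 in Ctrl-kd#1 and -0.64 and -0.76 in Ctrl-kd#2 and at 0.12 and 0.06 in Taf5-kd#1 and 0.11 and 0.23 in Taf5-kd#2. Ctrl-kd#1 was the lowest line, and both Taf5-kd lines were slightly above 0. The difference was 0.99 ± 0.13 (adjusted p = 0.0369). Actg2, the enteric gamma-actin, stood at -0.72 and -0.66 in Ctrl-kd#1 and -0.41 and -0.52 in Ctrl-kd#2 and at 0.06 and -0.04 in Taf5-kd#1 and 0.05 and 0.19 in Taf5-kd#2. The order of the lines was the same as for Acta2, with a smaller gap. The difference was 0.64 ± 0.10 (adjusted p = 0.0447).

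Acta1, the skeletal muscle actin, stood at -1.19 and -0.97 in Ctrl-kd#1 and -1.23 and -1.17 in Ctrl-kd#2 and at -1.10 and -1.13 in Taf5-kd#1 and -0.82 and -1.08 in Taf5-kd#2. All 8 arrays were low and the groups overlapped. Acta1 was lower than the pool in both groups, by 2.21-fold in Ctrl-kd (adjusted p = 0.00826) and 2.04-fold in Taf5-kd (adjusted p = 0.00973), and its difference between the groups was 0.11 ± 0.08 (adjusted p = 0.499). Actc1, the cardiac actin, stood at -0.30 and -0.28 in Ctrl-kd#1 and -0.23 and -0.29 in Ctrl-kd#2 and at -0.26 and -0.26 in Taf5-kd#1 and 0.03 and 0.09 in Taf5-kd#2. Taf5-kd#1 lay among the controls and Taf5-kd#2 above them, and the group difference was 0.17 ± 0.12 (adjusted p = 0.457).

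The actin genes are close in sequence, and the probes of Acta2 disagreed, so the values of single actin genes are uncertain. The brightest Acta2 probe, MMAB015983, gave the result above. Probe MMAB023785 read -1.50 and -1.90 in Ctrl-kd#1 and #2 and -1.41 and -0.30 in Taf5-kd#1 and #2, and probe MMAB030275 read -1.51 and -1.58 and -1.43 and -0.37. On both, Taf5-kd#1 was close to the controls and Taf5-kd#2 alone was high, and neither difference passed (adjusted p = 0.328 and 0.406). Probe MMAB024681 differed by 0.08 ± 0.04 (SE) between the groups and probe MMAB037074 by -0.04 ± 0.05, neither past the threshold, and the second cleared the background on 1 of 4 arrays of Taf5-kd. With the mean of all 5 probes the difference of Acta2 was 0.51 (adjusted p = 0.174), so that its call depends on the probe. Both probes of Actg1 passed, at 1.01 ± 0.11 and 0.66 ± 0.08. Cross-hybridisation among actin transcripts was not tested.

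**Figure D3:**
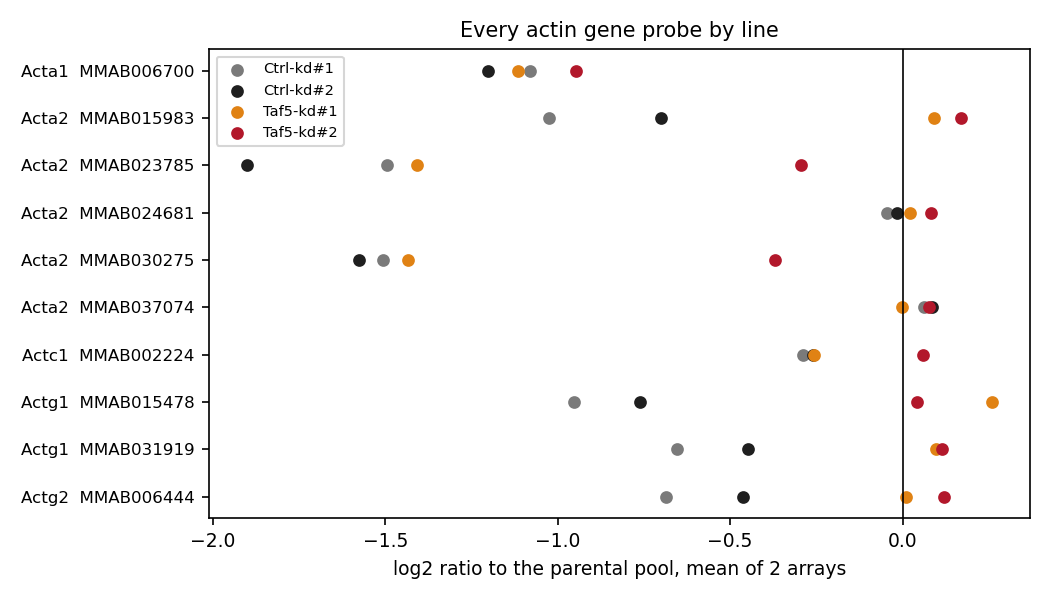
Log2 ratio to the parental pool (x axis) of every probe annotated to an actin gene (rows), as the mean of 2 arrays per line. Both Actg1 probes separate the control lines from the Taf5-kd lines, whereas on 2 of 5 Acta2 probes Taf5-kd#1 lies close to the controls.

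Tropomyosins wind along the filament and set which myosins and severing proteins reach it. Tpm1 and Tpm4 were higher in Taf5-kd, and Tpm2 and Tpm3 did not pass. Tpm1 stood at -2.59 and -2.35 in Ctrl-kd#1 and -2.52 and -2.63 in Ctrl-kd#2 and at 0.15 and 0.08 in Taf5-kd#1 and -0.37 and -0.42 in Taf5-kd#2. It was the lowest of all 46 genes in Ctrl-kd, 5.75-fold below the pool, and was close to the pool in Taf5-kd#1. The difference of 2.38 ± 0.19 (SE; 5.22-fold, adjusted p = 0.0249) was the largest of the 46. The other probes of Tpm1 differed by 1.40 ± 0.26 (adjusted p = 0.0656), 1.26 ± 0.14 (0.0317) and 0.52 ± 0.16 (0.155), all in the same direction but smaller, and the mean of all 4 probes gave 1.39. Splice forms were not told apart.

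Tpm4 stood at -1.57 and -1.42 in Ctrl-kd#1 and -1.65 and -1.67 in Ctrl-kd#2 and at 0.49 and 0.40 in Taf5-kd#1 and 0.01 and -0.03 in Taf5-kd#2. The controls were all low, Taf5-kd#2 was at the parental level and Taf5-kd#1 above it. The difference was 1.79 ± 0.18 (3.46-fold, adjusted p = 0.0283). Tpm2, on its brightest probe, had a difference of 0.81 ± 0.14 that did not pass (adjusted p = 0.0563). Its group means were -1.33 ± 0.27 (SD, n = 2) in Ctrl-kd and -0.53 ± 0.00 in Taf5-kd, both lower than the pool. The 2 Tpm2 probes differed by 0.71 and 0.81 between the groups. Of these probes, 1 passed with p-values adjusted over the 40860 probes. Tpm3 differed from the pool in neither comparison (-0.14 and -0.26).

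Calponins, transgelins and caldesmon bind the filament and restrain or stabilise actomyosin. Tagln, Cnn2 and Cald1 were higher in Taf5-kd, and Tagln2, Cnn1 and Cnn3 did not pass. Tagln, the transgelin gene also known as SM22 alpha and a textbook SRF target, stood at -2.51 and -2.28 in Ctrl-kd#1 and -2.37 and -2.45 in Ctrl-kd#2 and at -1.26 and -1.28 in Taf5-kd#1 and -0.73 and -0.85 in Taf5-kd#2. The control lines were alike, Taf5-kd#2 was higher than Taf5-kd#1, and neither reached the parental level. The difference was 1.37 ± 0.18 (2.59-fold, adjusted p = 0.0373), and Taf5-kd was still 2.04-fold below the pool (adjusted p = 0.0198). Its other probe differed by 2.19 ± 0.25.

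Cnn2, a calponin found outside muscle, stood at -1.77 and -1.73 in Ctrl-kd#1 and -1.90 and -1.89 in Ctrl-kd#2 and at -0.38 and -0.44 in Taf5-kd#1 and -0.46 and -0.44 in Taf5-kd#2. Both lines of each group were close together and the groups were far apart. The difference was 1.39 ± 0.07 (2.62-fold, adjusted p = 0.0241), and Taf5-kd stayed 1.35-fold below the pool (adjusted p = 0.0173). Cald1, the caldesmon gene, stood at -2.29 and -2.01 in Ctrl-kd#1 and -1.58 and -1.68 in Ctrl-kd#2 and at -0.20 and -0.31 in Taf5-kd#1 and -0.27 and -0.34 in Taf5-kd#2. Its control lines differed from each other while the Taf5-kd lines agreed closely. The difference was 1.61 ± 0.19 (3.06-fold, adjusted p = 0.0341).

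The other Cald1 probes differed by 0.73 ± 0.05 (adjusted p = 0.0224), 0.48 ± 0.14 (0.145) and -0.15 ± 0.11 (0.518), so 1 of the other 3 passed, and the mean of all 4 gave 0.67. Cnn1, the smooth muscle calponin, had means of -1.33 ± 0.15 (SD, n = 2) in Ctrl-kd and -0.44 ± 0.36 in Taf5-kd, and its difference of 0.89 ± 0.20 did not pass (adjusted p = 0.0864). Cnn3 (means of 0.18 and 0.06) and Tagln2 (-0.02 and -0.24) were not called in any of the 3 comparisons.

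The myosins provide the force. Myl9, a regulatory light chain of non-muscle and smooth muscle myosin II, was the only one of 4 called in Taf5-kd against Ctrl-kd. It stood at -0.87 and -0.72 in Ctrl-kd#1 and -0.85 and -0.79 in Ctrl-kd#2 and at -0.27 and -0.39 in Taf5-kd#1 and -0.33 and -0.42 in Taf5-kd#2. The lines of each group agreed, and the groups did not overlap. The difference was 0.45 ± 0.04 (adjusted p = 0.0271), and Myl9 was lower than the pool in both groups, by 1.75-fold and 1.28-fold.

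The non-muscle heavy chains had larger differences with a wider spread. Myh10 differed by 1.15 ± 0.23 (adjusted p = 0.0694), from -0.75 and -1.15 in the control lines to 0.44 and -0.03 in Taf5-kd#1 and #2. Its other probes differed by 0.70 ± 0.10, which passed (adjusted p = 0.0432), and 0.06 ± 0.04. Myh9 differed by 0.61 ± 0.21 (adjusted p = 0.171), from -0.98 and -1.38 to -0.37 and -0.76. Both genes were lower than the pool in Ctrl-kd and were not called in Taf5-kd. Myl6, the essential light chain, was at -0.20 and -0.26 and was called in none of the 3 comparisons.

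The crosslinkers bind filaments side by side. Actn1, Actn4 and Flna were lower than the pool in both Ctrl-kd and Taf5-kd, and none of the 3 passed between the groups in the limma test. At an unadjusted p under 0.05, a level that 26.7% of all features reached, there was 1, Actn4, which the less strict replicate-block fit also called. Flna, filamin A, was at -1.52 ± 0.21 (SD, n = 2) in Ctrl-kd and -1.35 ± 0.17 in Taf5-kd, 2.87-fold and 2.55-fold below the pool, with a difference of 0.17 ± 0.14 (adjusted p = 0.539). Actn4, an alpha-actinin, was at -0.66 ± 0.17 and -1.06 ± 0.02, and all 4 Taf5-kd arrays lay below all controls, with a difference of -0.40 ± 0.10 (adjusted p = 0.0986). Actn1 was at -0.44 and -0.41.

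Of the 5 focal adhesion and integrin genes, Itgb1, Vcl and Zyx were higher in Taf5-kd, and Tln1 and Itga5 did not pass. Itgb1, the beta-1 integrin subunit common to many matrix receptors, stood at -1.89 and -1.85 in Ctrl-kd#1 and -1.72 and -1.70 in Ctrl-kd#2 and at -0.42 and -0.46 in Taf5-kd#1 and -0.53 and -0.54 in Taf5-kd#2. The control arrays lay within a narrow range far below the narrow range of the Taf5-kd arrays. The difference was 1.30 ± 0.08 (2.47-fold, adjusted p = 0.0241). A second Itgb1 probe gave 1.12 ± 0.05, and the dimmer ones gave 0.22 ± 0.04 and 0.04 ± 0.04, which did not pass. The mean of all 4 was 0.67.

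Vcl, vinculin, which links talin to filaments, stood at -1.66 and -1.53 in Ctrl-kd#1 and -1.66 and -1.62 in Ctrl-kd#2 and at -0.47 and -0.60 in Taf5-kd#1 and -0.79 and -0.83 in Taf5-kd#2. The control lines agreed, and Taf5-kd#1 was the higher of the Taf5-kd lines. The difference was 0.95 ± 0.11 (adjusted p = 0.0323). The other Vcl probe gave 0.22 and the mean of both gave 0.58, and 1 of the 2 probes passed. Zyx, zyxin, a LIM protein of mature adhesions, stood at -0.74 and -0.64 in Ctrl-kd#1 and -0.69 and -0.61 in Ctrl-kd#2 and at 0.26 and 0.13 in Taf5-kd#1 and 0.24 and 0.20 in Taf5-kd#2. Every Taf5-kd array was above the pool and every control array below it. The difference was 0.88 ± 0.04 (adjusted p = 0.0241). Tln1, talin, the integrin activator, was at -0.09 in Ctrl-kd and -0.42 in Taf5-kd, where alone it was called lower than the pool (adjusted p = 0.0194). Its difference of -0.33 ± 0.07 between the groups did not pass (adjusted p = 0.0799). Itga5 was at -0.07 and -0.12, and in the Taf5-kd group its probe cleared the background on 3 of 4 arrays.

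On their brightest probes, all 8 LIM and PDZ-LIM genes were lower than the pool in Ctrl-kd, and 5 of them in Taf5-kd. Of all features, 13.0% and 10.7% were called lower. The call of Pdlim5 in Ctrl-kd, at -0.25, depends on the probe, since the mean of its 6 probes had the opposite sign. Fhl2, Pdlim7 and Palld were higher in Taf5-kd than in Ctrl-kd, and Fhl1, Fhl3, Csrp1, Pdlim5 and Lima1 did not pass. Fhl2, a LIM-only protein that can enter the nucleus, stood at -1.64 and -1.32 in Ctrl-kd#1 and -1.60 and -1.60 in Ctrl-kd#2 and at -0.25 and -0.42 in Taf5-kd#1 and -0.44 and -0.59 in Taf5-kd#2. The second array of Ctrl-kd#1 was less low than the other 3 controls, and the groups did not overlap. The difference was 1.12 ± 0.09 (2.17-fold, adjusted p = 0.0244). The other Fhl2 probes, both dimmer, gave 0.01 ± 0.04 and 0.01 ± 0.04, and the mean of all 3 was 0.38.

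Pdlim7, also known as enigma, stood at -1.005 and -0.83 in Ctrl-kd#1 and -0.85 and -1.04 in Ctrl-kd#2 and at -0.32 and -0.38 in Taf5-kd#1 and -0.31 and -0.24 in Taf5-kd#2. Both control lines were low, each with 1 array lower than the other. The difference was 0.62 ± 0.05 (adjusted p = 0.0243). Palld, palladin, a scaffold of stress fibres, stood at -0.78 and -0.66 in Ctrl-kd#1 and -0.56 and -0.59 in Ctrl-kd#2 and at -0.22 and -0.27 in Taf5-kd#1 and -0.23 and -0.26 in Taf5-kd#2. The difference of 0.40 ± 0.06 lay at the threshold (adjusted p = 0.0497). Its other probes gave 0.92 ± 0.04 (adjusted p = 0.0224) and -0.05 ± 0.07 (0.733), so the probes disagreed.

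Among the LIM genes that did not pass, Csrp1, a cysteine-rich protein of the filament, had a difference of 1.02 ± 0.19 (adjusted p = 0.0601), from -1.75 ± 0.02 (SD, n = 2) to -0.72 ± 0.36. The control lines were alike for Csrp1, and Taf5-kd#1 stood above Taf5-kd#2. Lima1, a bundling protein also called EPLIN, moved from -1.04 and -1.75 in the control lines to -0.50 and -0.76, with the widest spread between control lines of all 46 genes (adjusted p = 0.188). Fhl1, Pdlim5 and Fhl3 had differences of 0.53, 0.25 and 0.05.

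Srf itself stood at -0.28 and -0.29 in Ctrl-kd#1 and -0.25 and -0.28 in Ctrl-kd#2 and at -0.05 and -0.01 in Taf5-kd#1 and -0.07 and -0.07 in Taf5-kd#2. The Taf5-kd arrays lay above all controls, at and just below the parental level. Srf was 1.21-fold below the pool in Ctrl-kd (adjusted p = 0.0141) and was not called in Taf5-kd against the pool. The difference between the groups was 0.23 ± 0.04 (adjusted p = 0.0596), which did not pass at 0.05 and passed in the less strict replicate-block fit.

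**Figure D4:**
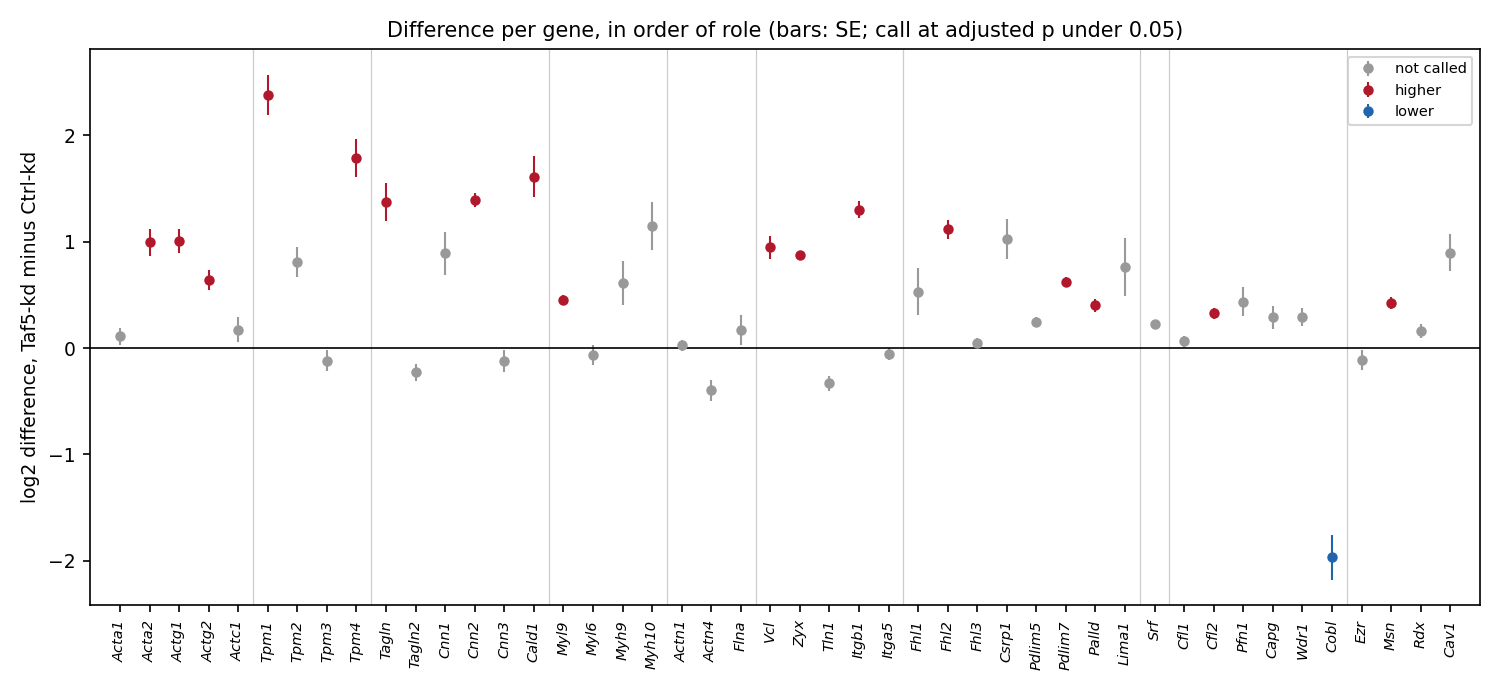
Difference Taf5-kd minus Ctrl-kd on the log2 scale (y axis; bars, SE) for 46 genes in order of role, with grey lines between role groups. The 5 largest positive differences belong to tropomyosins and to the calponin group, the 3 crosslinkers are not called, and Cobl at -1.97 is the 1 gene called lower.

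The actin turnover genes split. Cobl, cordon-bleu, which nucleates actin filaments, stood at 1.96 and 1.96 in Ctrl-kd#1 and 1.72 and 1.72 in Ctrl-kd#2 and at -0.39 and -0.40 in Taf5-kd#1 and 0.14 and 0.14 in Taf5-kd#2. It was far above the pool in both control lines, and the Taf5-kd lines lay to either side of the parental level. The difference was -1.97 ± 0.21 (3.91-fold lower, adjusted p = 0.0307). Cfl2, the muscle cofilin, which severs filaments, stood at -0.23 and -0.15 in Ctrl-kd#1 and -0.13 and -0.26 in Ctrl-kd#2 and at 0.08 and 0.09 in Taf5-kd#1 and 0.16 and 0.20 in Taf5-kd#2. All Taf5-kd arrays were above the pool and all controls below it, by small amounts. The difference was 0.33 ± 0.05 (adjusted p = 0.0469), while its second, dimmer probe gave -0.06 ± 0.04 and the mean of both gave 0.13.

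Pfn1 (profilin), Capg (a capping protein) and Wdr1 (a cofactor of cofilin) had differences of 0.44, 0.29 and 0.29 that did not pass, with no overlap between the arrays of the groups. Cfl1, the cofilin of non-muscle cells, was at -0.15 and -0.08.

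Ezrin, radixin and moesin tie filaments to the membrane, and caveolin-1 shapes caveolae. All 4 genes were lower than the pool in both groups. Msn, moesin, stood at -0.84 and -0.98 in Ctrl-kd#1 and -0.99 and -0.89 in Ctrl-kd#2 and at -0.48 and -0.42 in Taf5-kd#1 and -0.55 and -0.57 in Taf5-kd#2. The groups did not overlap, and both were low. The difference was 0.42 ± 0.06 (adjusted p = 0.0377). Cav1 was 3.46-fold below the pool in Ctrl-kd and 1.86-fold below it in Taf5-kd, and its difference of 0.90 ± 0.17 did not pass (adjusted p = 0.0661). Rdx and Ezr had differences of 0.16 and -0.11.

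**Figure D5:**
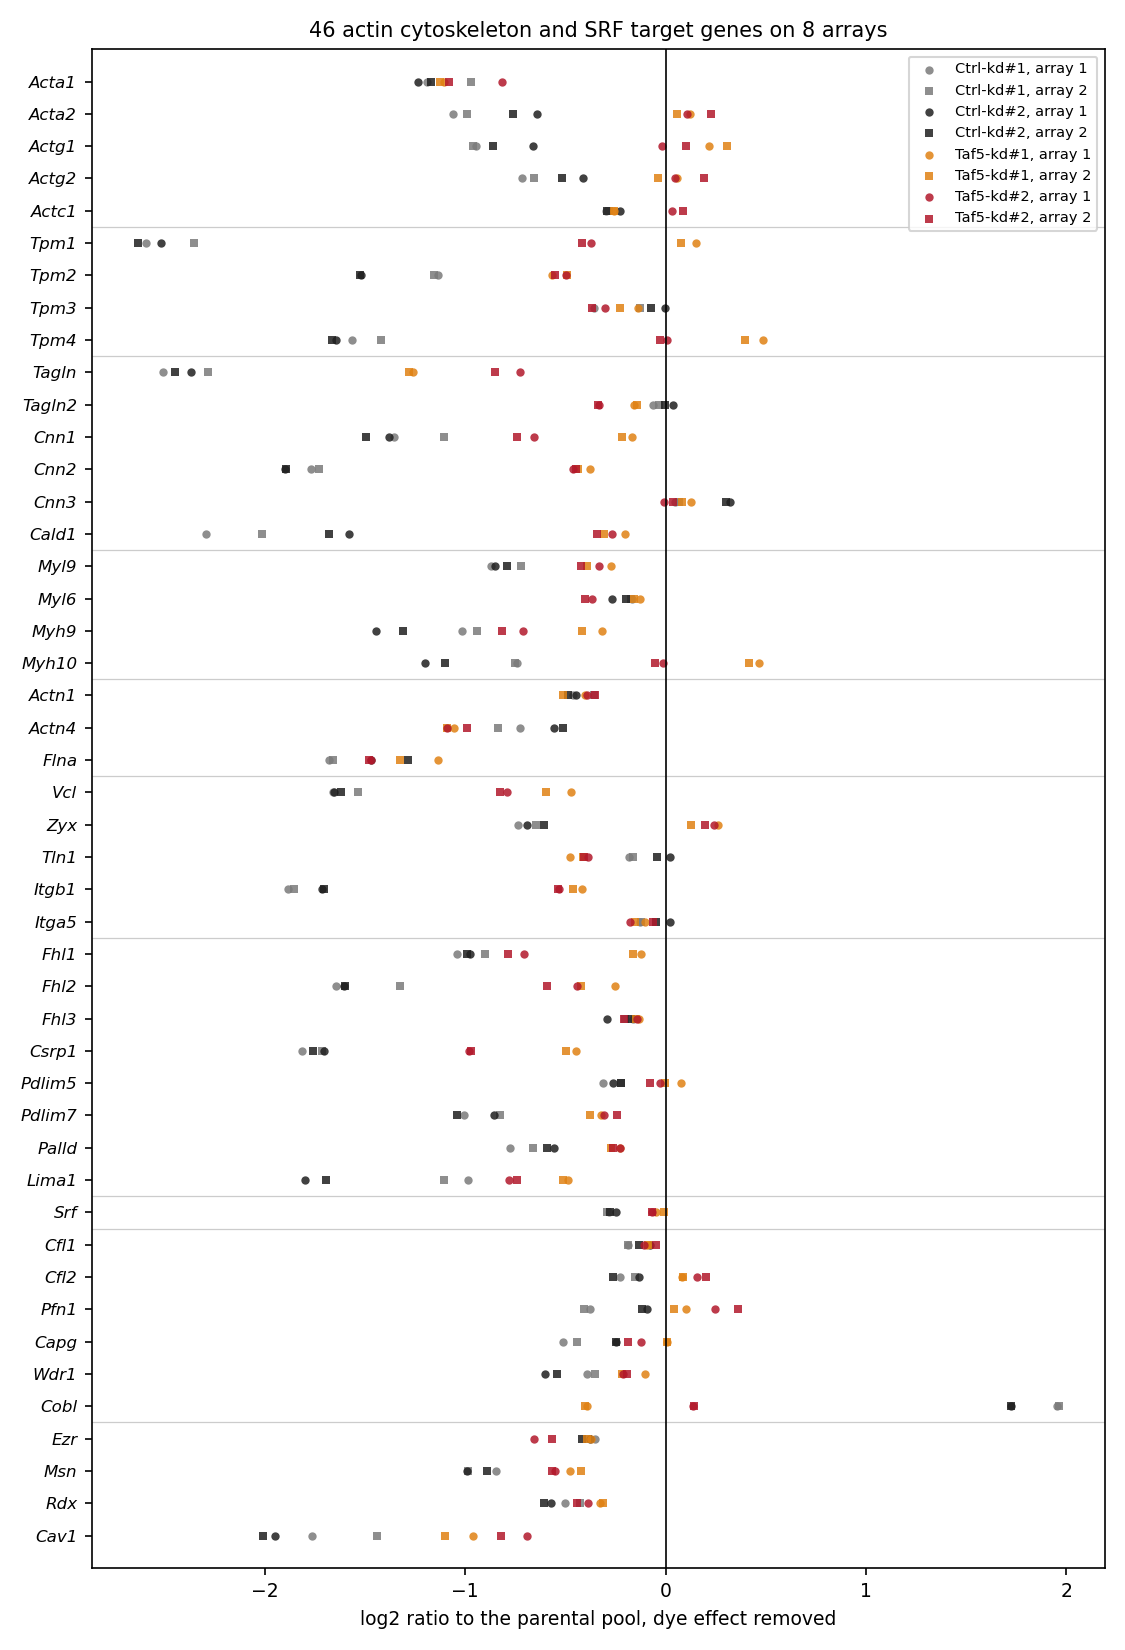
Log2 ratio to the parental pool on each of 8 arrays (x axis) for 46 genes (rows, in order of role); colour gives the line and shape the array of the line. Control arrays (grey and black) lie left of the Taf5-kd arrays (orange and red) for 30 genes and right of them for 4.

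A CArG box lay before 5 of the 15 genes called higher that had a promoter entry, 6 of the 28 not called and 0 of the 1 called lower. Of the genes lower in Ctrl-kd than in the pool, 9 of 34 had one. Acta1, with a box, stayed low in both groups, and Tpm1, Tpm4, Cald1 and Itgb1, with some of the largest differences, had none in this window.

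The lines of a group were not alike for every gene. Between Taf5-kd#1 and Taf5-kd#2, 16 of 46 genes were called, 12 of them higher in Taf5-kd#1, where 13.6% of all features were called in either direction. Between Ctrl-kd#1 and Ctrl-kd#2, 15 of 46 were called, against 13.4% of all features. These tests compare single clones against the spread between 2 cultures of a clone. Tpm1, Tpm4, Cnn1, Myh10, Fhl1 and Csrp1 were higher in Taf5-kd#1 by 0.51, 0.45, 0.51, 0.47, 0.60 and 0.50. Tagln, Actc1, Cobl and Pfn1 were lower there, by -0.48, -0.32, -0.54 and -0.23 on the same scale. In the controls, Lima1 and Myh10 were higher in Ctrl-kd#1, by 0.70 and 0.40, and Cald1 and Acta2 were lower, by -0.52 and -0.32. Without the dye term, 7 genes were called between the Taf5-kd lines and 1 between the control lines. Of all 25150 features, 923 and 936 were called without that term. Leaving out 1 array gave 7 to 18 and 4 to 14 calls, the lowest without Taf5-kd replicate 1 and without Ctrl-kd replicate 3.

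Genes of the same pathway outside the list were read from 4 further lists. For comparison, 4.5% of all features were called higher in Taf5-kd than in Ctrl-kd and 3.25% lower. Of 18 other SRF targets, 7 were higher in Taf5-kd and 0 lower, with a median difference of 0.263. The 11 that did not pass included Egr1, Egr2, Fos, Junb, Ier2 and Mcl1, while Fosb passed. Among the 18 differences, 12 were positive and 6 negative, from -0.51 to 3.15. The list was chosen with earlier results of these data known, so its count is not independent support. Anxa3, an annexin, went from -3.73 and -3.68 in the control lines to -0.26 and -0.85 in Taf5-kd#1 and #2 (3.15 ± 0.22, adjusted p = 0.0241). Ccn1 and Ccn2, matricellular proteins, differed by 1.96 ± 0.23 and 1.70 ± 0.25.

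Of 15 tested genes of the Arp2/3 complex and branched actin, 0 passed in the limma test and 7 had an unadjusted p under 0.05 (26.7% of all features). The replicate-block fit called 4 higher and 2 lower, where it called 12.4% of all features higher and 10.2% lower. Arpc5, a subunit of the complex, differed by 0.45 ± 0.08 (adjusted p = 0.0546) and Nckap1, of the WAVE complex, by 0.22 ± 0.04 (0.0562). Of 20 other focal adhesion genes, 2 were higher and 1 lower: Parva, which binds integrin-linked kinase, differed by 1.43 ± 0.17, Bcar1, an adhesion scaffold, by 0.73 ± 0.10 and Tns3, a tensin, by -0.88 ± 0.07. Of 28 monomer-binding, capping, severing and bundling genes, 2 were higher and 1 lower, namely Cap1 at 0.47 ± 0.05, Actn2 at 0.43 ± 0.05 and Twf1 (twinfilin) at -0.54 ± 0.08. The last 2 lists had medians of -0.041 and -0.004. Their counts stand beside 4.5% of all features called higher and 3.25% called lower.

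Markers of other cell types were read beside these results. The limma test called 4.5% of all features higher and 3.25% lower, and the replicate-block fit 12.4% and 10.2%. Of 8 fibroblast and feeder markers, 0 passed between Taf5-kd and Ctrl-kd, 2 had an unadjusted p under 0.05, near the 26.7% of all features, and the replicate-block fit called 2 higher. The mean ratio of these markers to the pool was -0.52 and -0.63 in the control lines and -0.42 and -0.21 in Taf5-kd#1 and #2. Lower than the pool were 4 of 8 in Ctrl-kd and 1 of 8 in Taf5-kd, where 13.0% and 10.7% of all features were called lower. Col1a1, a collagen chain, was at -2.88 and -3.31 in Ctrl-kd#1 and #2 and at -2.03 and -0.68 in Taf5-kd#1 and #2 (adjusted p = 0.137). Its difference was the largest of the 8, and it lies on chromosome 11, whose median differed between the groups (below). The 8 markers had a median difference of 0.162, with 5 positive and 3 negative, the lowest at -0.37. Their part in the result was not tested.

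Of 7 smooth muscle markers, Smtn was higher (0.39 ± 0.04, adjusted p = 0.028), and the rest did not pass. The list of other SRF targets also holds Smtn, Myh11, Des and Lmod1. At an unadjusted p under 0.05, and likewise in the replicate-block fit, there were 1 higher and 1 lower. Of all features, 14.0% were higher and 12.7% lower at that p, and 12.4% and 10.2% in that fit. The 1 lower was Lmod1, a leiomodin, at -0.26 ± 0.05 (adjusted p = 0.0571), with all Taf5-kd arrays below all controls. The mean of this list lay between -0.03 and 0.02 in all 4 lines. Myh11, Des, Myocd, Synpo2 and Mylk had differences of -0.05, -0.11, 0.00, 0.02 and -0.01. Of 8 cardiac and skeletal muscle markers, 0 passed, 3 had an unadjusted p under 0.05 (26.7% of all features), the replicate-block fit called 1 higher and 1 lower, and the mean lay between -0.10 and 0.04.

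Of 8 markers of ES cells, Esrrb was lower in Taf5-kd than in Ctrl-kd (-1.56 ± 0.16, adjusted p = 0.0292), and the other 7 did not pass. At an unadjusted p under 0.05, 6 of the 8 were lower (12.7% of all features). The replicate-block fit called 6 lower (10.2% of all features). Against the pool, Nanog, Sox2 and Esrrb were higher in Ctrl-kd (8.38% of all features), and 2 of 8 markers were lower in Taf5-kd (10.7%). Between the Taf5-kd lines, 5 of 8 were called, all lower in Taf5-kd#1 (13.6% of all features in either direction). Between the control lines, 2 were higher and 2 lower in Ctrl-kd#1 (13.4% in either direction). The mean ratio of these markers was 0.56 and 0.52 in the control lines and -0.36 and 0.06 in Taf5-kd#1 and #2. Their part in the result was not tested. In RNA from whole cultures, fewer cells of a type and less RNA per cell cannot be told apart.

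The medians of chromosomes 8 and 11 differed between the groups. Only medians were computed, so a shift of the whole chromosome and of a segment cannot be told apart. Over features brighter than the median feature, chromosome 8 had a median of -0.139 in Ctrl-kd#1 and -0.128 in Ctrl-kd#2, but 0.138 in Taf5-kd#1 and 0.137 in Taf5-kd#2. For chromosome 11 these medians were -0.139 and -0.130 against 0.0763 and 0.0877. On these lie 8 of the 46 genes, namely Acta1, Tpm4, Itgb1 and Palld on chromosome 8 and Actg1, Myh10, Pfn1 and Cobl on chromosome 11. Of these 8, 4 were higher in Taf5-kd than in Ctrl-kd and 1, Cobl, was lower. Of the 38 genes elsewhere, 13 were higher and 0 lower. Over all chromosomes, 4.5% of features were called higher and 3.25% lower. Chromosome X, which holds Flna, Fhl1 and Msn, had medians of -0.108 in Ctrl-kd#1 and -0.0996 in Ctrl-kd#2. Its medians were -0.0004 in Taf5-kd#1 and -0.0881 in Taf5-kd#2, so there the Taf5-kd lines differed from each other. After the median of its chromosome was taken from every gene, 15 genes were higher and 1 lower. Of all 25150 features, 934 were then called higher and 741 lower. Palld (0.30, adjusted p = 0.0714) and Cfl2 (adjusted p = 0.0560) no longer passed.

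In the authors' deposited table, 21 of the 46 brightest probes had a p-value under 0.05 with a positive difference of Taf5-kd against Ctrl-kd and 1 with a negative one, where 6.74% and 5.07% of the brightest probes of all features did. These included 17 of the 18 genes called here. The test behind that p-value is not given in the sources used here.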

How the data were processed

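Intensity values of 45220 spots per array, with their local background, were taken from the deposited scanner tables, which the authors had not treated further per the file headers. The background was corrected with normexp (offset 50), which pulls ratios of dim probes towards 0, and arrays were normalized by loess with control spots at weight 0 in limma 3.58.1 (R 4.3.3), then turned to sample over pool by the dyes in the labels. Probes above background by 2 background SDs on at least 4 of 8 arrays were kept (40860). Symbols followed the platform annotation, updated through RefSeq.

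Each line was summarised by its 2 dye-swapped arrays, since cultures of a clone share the clone, and 4 line values were tested with lmFit and eBayes (two-sided, Benjamini-Hochberg over 25150 features, threshold 0.05). Lines were compared on 8 arrays with a dye term. Where probes of a gene are compared, p-values were adjusted over the 40860 probes. The array number pairs the arrays through the dye: same-numbered arrays of different lines correlated at 0.629 to 0.784 after removal of line means. The log2 ratios of the authors' deposited matrix were used as an alternative, and the p-value and log2 difference of the deposited comparison table were read as given, with normalization and test not given in the sources used here. Plots used matplotlib 3.10.9, and the fits were tested on simulated data.

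Members, lists and tests were chosen with earlier results of these data known. Values on each array are given for called genes, actins and Srf, and all probes where they disagreed by opposite signs with a call or by over 1 log2 unit. Up to 3 genes were named with their values from each other list. A further list of signalling genes is not reported here.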

Additional observations from a re-analysis of the deposited data

Results flagged for a closer look

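Fhl2 on the second array of Ctrl-kd#1 (-1.32) and Acta1 on the first array of Taf5-kd#2 (-0.82) lay further from the other 3 arrays of their group than Dixon's test allows. These were 2 of 92 such tests. The test's nominal rate of about 1 in 20 assumes 4 independent values. The 4 arrays of a group come from 2 lines with 2 arrays each, so that rate cannot be used to judge the count.

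Several genes differed between the lines of a group at adjusted p under 0.05 in limma's test against the spread between cultures. Taf5-kd#1 minus Taf5-kd#2 was positive for Tpm1 (0.51), Tpm4 (0.45), Tagln2 (0.19), Cnn1 (0.51), Myl6 (0.24), Myh9 (0.40), Myh10 (0.47), Vcl (0.28), Fhl1 (0.60), Csrp1 (0.50), Lima1 (0.26) and Ezr (0.23). It was negative for Actc1 (-0.32), Tagln (-0.48), Pfn1 (-0.23) and Cobl (-0.54). Ctrl-kd#1 minus Ctrl-kd#2 was positive for Tpm2 (0.38), Myh9 (0.40), Myh10 (0.40), Lima1 (0.70), Wdr1 (0.20), Cobl (0.23) and Cav1 (0.38). It was negative for Acta2 (-0.32), Cnn3 (-0.25), Cald1 (-0.52), Actn4 (-0.25), Flna (-0.29), Itgb1 (-0.16), Pfn1 (-0.29) and Capg (-0.23).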

How the results depend on the processing

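The genes called higher in Taf5-kd than in Ctrl-kd numbered 17. There were 3 with median centring, 0 without Ctrl-kd#1, 0 without Taf5-kd#1, 2 without Taf5-kd#2, 0 without Ctrl-kd#2 and 29 with the replicate block. The 1 gene called lower gave 0 calls without each line in turn and 4 with the replicate block. Leaving out a line leaves 1 fewer residual degree of freedom, and the whole table then had 0, 0, 110 and 0 calls in place of 1950. Leaving out 1 array gave 14 to 21 higher and 1 to 1 lower. The 36 genes lower in Ctrl-kd than in the pool became 20 with median centring, 21 without Ctrl-kd#1 and 20 without Ctrl-kd#2, and 34 to 36 without 1 array. The 20 genes lower in Taf5-kd became 2 with median centring and 0 without either Taf5-kd line, and 18 to 20 without 1 array. Between the Taf5-kd lines the 16 calls became 0 with median centring and 7 with no replicate block, and 7 to 18 without 1 array. Between the control lines the 15 calls became 1 with median centring and 1 with no replicate block, and 4 to 14 without 1 array. Over all features, median centring called 51 higher in Taf5-kd than in Ctrl-kd in place of 1133. Against the pool it called 691 lower in Ctrl-kd in place of 3270, and 119 lower in Taf5-kd in place of 2684. Calls over all features between the Taf5-kd lines fell from 3408 to 94 with median centring and to 923 with no replicate block. Between the control lines they fell from 3375 to 322 and to 936. Pdlim5 in Ctrl-kd against the pool reversed from -0.25 to 0.081 with the mean of its probes. Of the 18 genes called between the groups, 0 changed sign in any of 20 settings. The causes were not tested. With no filter on dim probes the calls between the groups were 17 higher and 1 lower.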
